A study of Homo sapiens with 72 samples.

Results

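Decay of cytoplasmic transcripts without translation was followed in glutamine-starved A375 cells, an established human melanoma line, by comparing 3 h with 0 h of combined treatment with triptolide and cycloheximide (the mQ TCHX groups). These are 6 of the 72 QuantSeq libraries of the study, 3 per time, and they were chosen by their titles. All cells of the comparison had been kept for 18 h in medium without glutamine. Both groups then received triptolide (25 µM), which blocks transcription, and cycloheximide (100 µg/ml), which blocks the movement of ribosomes. The 0 h cells were harvested as soon as the drugs had been added, so they carried both agents as well, and no group of the comparison was left without drug. The closest groups were the mQ T arm, with triptolide alone, and the TCHX arms of cells kept with glutamine (pQ), transfected with a control siRNA (siGL2) or with a siRNA against CTU2 (siCTU2), for 42 h in the case of the siRNAs and 18 h in the case of the medium, each with 3 libraries at 0 h and 3 at 3 h. A375 is 1 line, and the sources do not say whether replicates were separate cultures, so p-values measure the spread between these libraries. In bulk libraries of this kind, fewer cells holding a transcript and less of it per cell cannot be told apart.

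Once transcription is stopped, the loss of a transcript is read as its decay. These libraries hold cytoplasmic RNA, so movement between nucleus and cytoplasm cannot be told apart from decay. Many short-lived mRNAs, such as those of immediate early factors, carry AU-rich elements in the 3′ UTR that recruit deadenylases, and for many mRNAs decay is also coupled to passing ribosomes, so that cycloheximide slows their loss. Nonsense-mediated decay needs translation too. RNAs spliced out as introns or processed by Drosha are removed by routes that do not need ribosomes. Glutamine starvation activates the amino acid response, in which ATF4 induces genes such as CHAC1 and DDIT3.

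The 6 libraries held between 8619343 and 15370333 counts, with 16193 to 17387 genes detected, within the range of 5987692 to 15534331 counts over all 72. Of 13 melanoma lineage genes, 11 were detected in all 6 libraries, and their summed level was 1702 to 1948 CPM, counts scaled to an equal total per library, at 0 h and 1491 to 1741 CPM at 3 h. The pigment genes MLANA and TYR were nearly absent (at most 0.58 and 1.16 CPM). Of 11 markers of other cell types, CD3E, KRT5 and PECAM1 had 0 counts, and the summed level of all 11 was 106 to 139 CPM at 0 h and 101 to 117 CPM at 3 h, most of it from KRT18.

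Counts were scaled to 82 genes whose share of the library rose over time in every arm and replicate (the stable genes, 2.55% of the counts of the 6 libraries), after the study's methods. Levels below are these normalised counts, and changes are log2 ratios of 3 h over 0 h. A gene is called lower or higher at an edgeR quasi-likelihood adjusted p under 0.05, and fast if it was also at least 2-fold lower. On this scale the median change of the 12611 tested genes was −0.61 (−0.56, −0.63 and −0.64 in the 3 same-numbered pairs of libraries), and each change is to be read against that value. The second scale, edgeR's TMM, sets the typical gene near 0 (median 0.006).

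Most transcripts fell on the stable-gene scale, whereas a small set fell beyond the typical gene. Of 12611 genes, 9671 (76.7%) were lower and 101 (0.801%) higher at 3 h, and 1345 (10.7%) were fast. With TMM scaling 385 genes (3.05%) were lower and 208 (1.65%) were at least 2-fold lower. At least 4-fold falls were estimated for 233 genes on the stable-gene scale, at least 8-fold falls for 91 and at least 16-fold falls for 40. The make-up of these groups changed with the size of the fall. Protein-coding genes formed 86.6% of all tested genes but 65.5% of the fast ones, and 34.8%, 18.7% and 12.5% of those past 4, 8 and 16-fold. Long non-coding RNAs (lncRNAs) were 7.19% of tested and 18.9% of fast genes, and 28.8% of the 208 genes called with TMM.

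The 15 falls that met the naming rule were led by EBLN2, MIR222HG, LOC112268009 and MIR17HG. EBLN2, an endogenous bornavirus-like gene, had normalised counts of 120, 93.4 and 99.9 at 0 h and of 0.786, 0.892 and 0.557 at 3 h. The groups lay far apart (log2 change −6.97, SE 0.48, edgeR adjusted p = 3.87e-10). EBLN2 (chromosome 3, 73061659 to 73063337, plus strand, GRCh38) overlapped no exon of PPP4R2, a phosphatase subunit gene in which it lies on the same strand, and PPP4R2 itself fell by 0.80 (adjusted p = 1.54e-05). NFKBIZ, also among the 15, is described with the mRNAs below. The TMM values of the 15 lay between −6.39 and −3.03. One of the 15, RPL7A_1, an extra copy name of a ribosomal protein gene, rested on a single library. It had 14.4, 26.8 and 1456 normalised counts at 0 h and 11.1 to 15.2 at 3 h, and without 0 h replicate 3 its change was −0.65 (edgeR adjusted p = 0.317).

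The microRNA host transcripts that met the naming rule were almost lost. MIR222HG (chromosome X, 45745210 to 45770274, minus strand), the host of miR-221 and miR-222, had 247, 165 and 261 normalised counts at 0 h and 3.93, 2.68 and 4.46 at 3 h (log2 change −5.84, SE 0.31, edgeR adjusted p = 8.01e-12). MIR17HG (chromosome 13, 91347686 to 91397592, plus strand), the host of the miR-17-92 cluster, had 195, 201 and 244 at 0 h and 0.786, 6.25 and 5.57 at 3 h (−5.60, SE 0.34, edgeR adjusted p = 4.65e-11). No library at 3 h came near any at 0 h for either host. Among all 18 tested genes named as miRNA hosts, 8 were fast (5 with TMM), against 10.7% of all tested genes and 25.7% of 829 non-coding genes placed by the gene models, and 10 were not. These libraries count host transcripts and not mature miRNAs. The mature miRNAs that the 2 hosts carry are shown to identify the clusters, from RefSeq (GRCh38.p14), with the seed (bases 2 to 8) in capitals. Within MIR222HG, miR-221-3p and miR-222-3p share 1 seed.
miR-221-3p: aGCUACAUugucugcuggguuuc
miR-222-3p: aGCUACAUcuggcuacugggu
Within MIR17HG, miR-17-5p and miR-20a-5p share a seed, miR-19a-3p and miR-19b-3p share another, miR-18a-5p has a seed of its own, and so has miR-92a-3p.
miR-17-5p: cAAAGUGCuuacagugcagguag
miR-20a-5p: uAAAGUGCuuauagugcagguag
miR-18a-5p: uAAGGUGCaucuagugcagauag
miR-19a-3p: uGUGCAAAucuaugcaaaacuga
miR-19b-3p: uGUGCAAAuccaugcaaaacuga
miR-92a-3p: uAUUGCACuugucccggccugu

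Transcripts named for a position inside an intron, or placed in one by the gene models, formed another group of falls. Of 9 tested genes with the intronic transcript suffix (-IT), 8 were fast (7 with TMM). The shares were 10.7% (1.65% with TMM) over all tested genes and 25.7% (5.31%) over 829 non-coding genes placed by the gene models. KIRREL1-IT1 (chromosome 1, 158025550 to 158031166, plus strand) had 219, 315 and 260 normalised counts at 0 h and 14.2, 6.25 and 26.2 at 3 h (log2 change −4.0, SE 0.29, edgeR adjusted p = 1.00e-09). Its host KIRREL1, an adhesion protein gene, had a change of −0.16 (adjusted p = 0.309). BIN3-IT1 had 150, 148 and 187 at 0 h and 0, 12.5 and 3.9 at 3 h (−4.96, SE 0.44, edgeR adjusted p = 2.50e-08). Likewise, the processed pseudogene RPL23AP32 (chromosome 2, 54529343 to 54529801, plus strand), within the spectrin gene SPTBN1, had 229, 297 and 210 at 0 h and 5.5, 10.7 and 8.36 at 3 h (−4.90), while SPTBN1 fell by 0.59. RPS15AP10 (chromosome 1, 45645816 to 45646197, minus strand), within GPBP1L1, fell by 3.92 and its host by 0.73. For each of these 4 transcripts every 3 h library lay below every 0 h library. The same held for genes with small changes, such as TMEM14A (−0.48), so it does not set these 4 apart.

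The same was counted over all non-coding genes of the annotation, GENCODE v44. Of 54 non-coding genes that lay wholly within an intron of a protein-coding gene on the same strand, 30 (55.6%) were fast and 20 (37.0%) were so with TMM. Of 766 outside such genes, 179 (23.4%) were fast and 22 (2.87%) with TMM, and of 10919 protein-coding genes 8.07% and 0.852%. The median change of the 54 was −1.80, against −0.60 for their hosts, and 39 of the 50 with a tested host fell more than it. Many of these genes are low, and a low gene can pass the count filter through its 0 h libraries alone. Among genes with a mean of at least 50 normalised counts over the 6 libraries, a limit chosen after the data were seen, 9 of 16 intronic genes (56.3%) were fast, and 9 with TMM, against 58 of 299 (19.4%; 11 with TMM) of the other non-coding genes and 6.04% of protein-coding genes. The limit of 50 can be met by the 0 h libraries alone as well, so it does not remove this dependence. RPS15AP10, for example, had a mean of 110 at 0 h and of 58.8 over the 6 libraries. The strand setting of the counting is not given in the sources used here, so reads of an intronic gene and of its host's unspliced RNA may be shared.

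**Figure D1:**
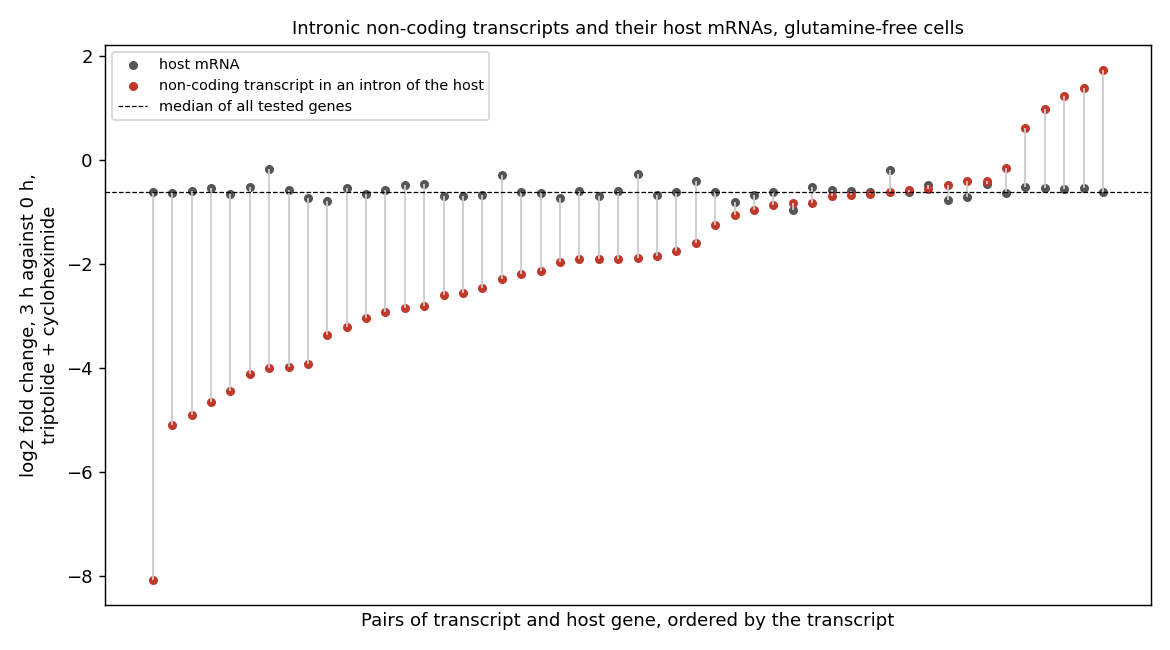
Change from 0 h to 3 h in mQ TCHX cells (log2, normalised to the stable genes, vertical) of 50 non-coding transcripts within an intron of a same-strand protein-coding gene (red) and of the host mRNA (grey), with each pair joined by a line and pairs ordered by the transcript. In 39 of 50 pairs the intronic transcript lies below its host, and the hosts lie between −0.95 and −0.16 with a median of −0.60.

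The remaining named falls were the small nucleolar RNA SNORD63 and loci without a gene name. SNORD63 had 203, 192 and 257 normalised counts at 0 h and 11.8, 13.4 and 17.3 at 3 h (log2 change −3.90, SE 0.25, edgeR adjusted p = 1.25e-10). Positions were matched by gene name, which several loci can share, so none is given for SNORD63. These libraries read polyadenylated 3′ ends, and which RNA gave the counts under snoRNA names was not tested. Loci known only by identifiers had log2 changes of −5.81 (LOC112268009), −4.45 (LOC107985851), −4.44 (LOC107986699), −4.03 (LOC105369180) and −3.65 (LOC107985567). LOC107985567 is annotated as protein-coding, LOC112268009 and LOC107986699 as lncRNAs, and no type was found for the other two. LOC105369180 was the most even of them, with 303, 341 and 351 at 0 h and 20.4, 19.6 and 20.6 at 3 h. Most spliced snoRNA host transcripts fell little beyond the typical gene. Of 19 tested, 18 were lower and 4 fast on the stable-gene scale, with a median of −0.67, and 2 were lower with TMM. SNHG3 had 2442, 2941 and 2476 at 0 h and 640, 900 and 619 at 3 h (−1.87, edgeR adjusted p = 1.35e-09), and GAS5, a host transcript degraded by nonsense-mediated decay, had a change of −0.75 (adjusted p = 4.67e-05), which was −0.14 with TMM.

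Among the 881 protein-coding genes that were fast, those with the largest falls were ranked after their values were seen, with a mean of at least 100 normalised counts at 0 h and a fall in all 3 pairs. EBLN2, NFKBIZ and LOC107985567, which the naming rule had already given, came first. NFKBIZ encodes a nuclear regulator of NF-kB. Its normalised counts were 239, 249 and 218 at 0 h and 3.15, 1.78 and 13.9 at 3 h (log2 change −5.02, SE 0.35, edgeR adjusted p = 4.03e-10). After LOC107985567 (−3.65) came CCN1 and TRIB1. CCN1, a matricellular growth regulator, had 570, 496 and 535 at 0 h and 57.4, 26.8 and 57.9 at 3 h (−3.46, SE 0.21, edgeR adjusted p = 5.23e-11). TRIB1, a pseudokinase, had 694, 711 and 903 at 0 h and 59.0, 81.2 and 71.9 at 3 h (−3.45, SE 0.17, edgeR adjusted p = 1.37e-12). In none of these did the 0 h and 3 h libraries overlap. That was also so for genes with small changes, such as TMEM14A (−0.48), so it does not set these mRNAs apart.

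Further down, MYC, the growth-promoting transcription factor, had 219, 164 and 127 normalised counts at 0 h and 22.8, 29.4 and 13.4 at 3 h (−2.99, SE 0.29, edgeR adjusted p = 7.88e-08). NFKBIA, the inhibitor of NF-kB, had 486, 463 and 444 at 0 h and 66.8, 91.9 and 106 at 3 h (−2.38, SE 0.18, edgeR adjusted p = 1.14e-09). ID1, an inhibitor of basic helix-loop-helix factors, had 411, 287 and 350 at 0 h and 66.8, 66.9 and 45.1 at 3 h (−2.56, SE 0.20, edgeR adjusted p = 2.44e-09). For these 3 mRNAs, as for some with small changes, the lowest 0 h library exceeded the highest 3 h library. DUSP10, a phosphatase of stress-activated kinases, fell by 2.35, from 425 to 571 normalised counts at 0 h to 75.2 to 116 at 3 h. MYLIP, an E3 ligase of the LDL receptor, changed by −2.99, the deubiquitinase YOD1 by −2.76, the kinase SGK1 by −2.37, HOXD4 by −2.37, the replication stress protein ETAA1 by −2.36 and SPATA2 by −2.27. The rest of the fast mRNAs fell less, since 81 of 881 were past 4-fold and 17 past 8-fold.

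**Figure D2:**
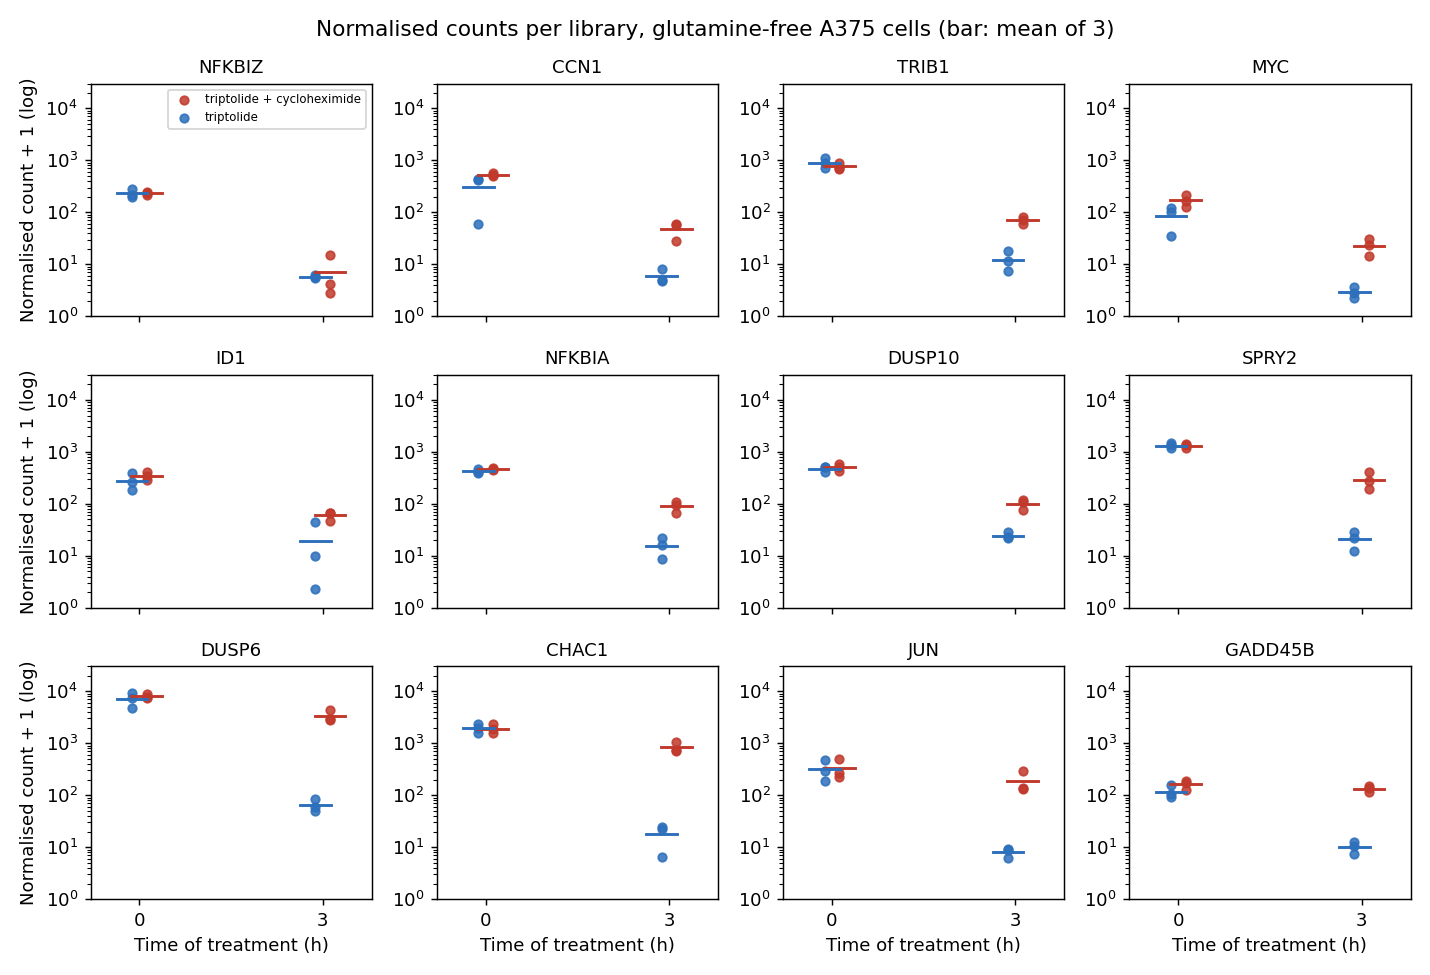
Normalised counts plus 1 (log axis) of 12 mRNAs in each mQ library at 0 h and 3 h, in the TCHX arm (red) and the T arm (blue), with 1 point per library and a bar at the mean of 3. NFKBIZ reached similar counts in both arms at 3 h, while DUSP6, CHAC1, JUN and GADD45B stayed far higher in the TCHX arm.

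The 3′ UTRs of these mRNAs were read for AU-rich and Pumilio motifs. The motifs were AUUUA, the nonamer UUAUUUAUU, which contains it, and the Pumilio motif UGUANAUA, each on the transcript strand. At least 1 AUUUA was present in 84.4% of fast mRNAs with a 3′ UTR and in 75.5% of all tested mRNAs, of which 10899 of 10919 had a 3′ UTR in the gene models. The nonamer was present in 13.6% and 10.2%, and UGUANAUA in 40.0% and 31.9%. Another class held 705 mRNAs that were fast in the T arm only and fell less with cycloheximide, by the test described below. In it the shares of AUUUA, the nonamer and UGUANAUA were 79.7%, 13.3% and 39.0%, so the last 2 were near those of the fast mRNAs. Fast mRNAs also had longer 3′ UTRs (median 1706 against 1418 bases), and a longer UTR holds more of any motif. Within length classes, the nonamer was found in 4.39% of fast against 2.67% of all mRNAs with short 3′ UTRs, in 10.5% against 7.69% with middle and in 22.6% against 20.1% with long ones. For mRNAs fast with TMM these shares were 7.14%, 5.56% and 25.0%, of only 28, 36 and 28 mRNAs, so the direction turned in the middle class. AUUUA was found in 55.3% of fast against 43.9% of all mRNAs with short 3′ UTRs. With middle ones it was found in 88.8% against 84.5%, and with long ones in 100% against 98.2%. UGUANAUA was not split by length. The third base of the codons was G or C in 53.5% of codons of fast mRNAs and in 57.6% over all (medians), but in 59.7% for mRNAs fast with TMM and 58.3% for those at least 3-fold lower, so the direction turned with the scale and the fold limit. These shares are descriptions, and a match is not a shown site.

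Windows of 29 bases around 1 motif of each of 8 mRNAs named here are given so that the motifs of mRNAs with the larger falls in the TCHX arm can be set beside those of mRNAs with smaller ones (GRCh38, from GENCODE gene models, written 5′ to 3′ on the transcript strand, with the motif in capitals). NFKBIZ (chr3:101859480-101859508, plus strand), CCN1 (chr1:85583559-85583587, plus strand), NFKBIA (chr14:35401910-35401938, minus strand) and DUSP10 (chr1:221701503-221701531, minus strand) fell by at least 4-fold without translation.
NFKBIZ: tgaaacaaacatATTTAgttcactattat
CCN1: actgaatgttttATTTAtcaaaatgtagc
NFKBIA: aaagaagaaaaaATTTAaagggtgtactt
DUSP10: taagaaaaaaaaATTTAtttaaaaatatt
DUSP6 (chr12:89348102-89348130, minus strand), JUN (chr1:58781336-58781364, minus strand), CHAC1 (chr15:40955959-40955987, plus strand) and IER5 (chr1:181092443-181092471, plus strand) fell by less than 4-fold without translation and far more in the T arm, as described below. In CHAC1 and IER5 the capitals mark the nonamer.
DUSP6: tttagagctggaATTTAttataagaatgt
JUN: tccagaaaggatATTTAagaaaatacaat
CHAC1: acttgaaactTTATTTATTgcaccatgtt
IER5: gtgtcttcctTTATTTATTtatttattta
Over the whole 3′ UTR, NFKBIZ and JUN hold 3 AUUUA each, DUSP6 holds 1, IER5 holds 10 and DDIT4 holds 0. The number of these motifs did not order these mRNAs by their fall without translation.

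The effect of cycloheximide was next examined by setting this fall beside that with triptolide alone. In the mQ T arm 3473 of 12201 genes (28.5%) were fast, with a median of −0.71. Among 12072 genes tested in both arms, 925 were fast in both, 2514 in the T arm only and 299 in the TCHX arm only. In a fit over the 12 libraries, the fall was smaller with cycloheximide for 969 of 13062 genes (7.42%) and larger for 9 (0.0689%), where a smaller fall includes the few genes that did not fall with cycloheximide. Of the 925 genes fast in both arms, 205 fell less with cycloheximide by this test. Of the 2514 fast in the T arm only, 742 did so, and of the 299 fast in the TCHX arm only, 2 fell more. Most genes of these 2 classes thus differed by the threshold and not by the test. With TMM 170 genes were fast in both arms, 876 in the T arm only and 25 in the TCHX arm only. Of the 1345 genes fast without translation, 1224 were tested in the T arm and their median there was −1.74, against −1.31 in the TCHX arm. The total of 978 was 853 with TMM, and 391, 599 and 811 without replicate 1, 2 or 3. The 9 larger falls were 30 with TMM, 71 without a count filter and 0, 2 and 110 without replicate 1, 2 or 3.

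**Figure D3:**
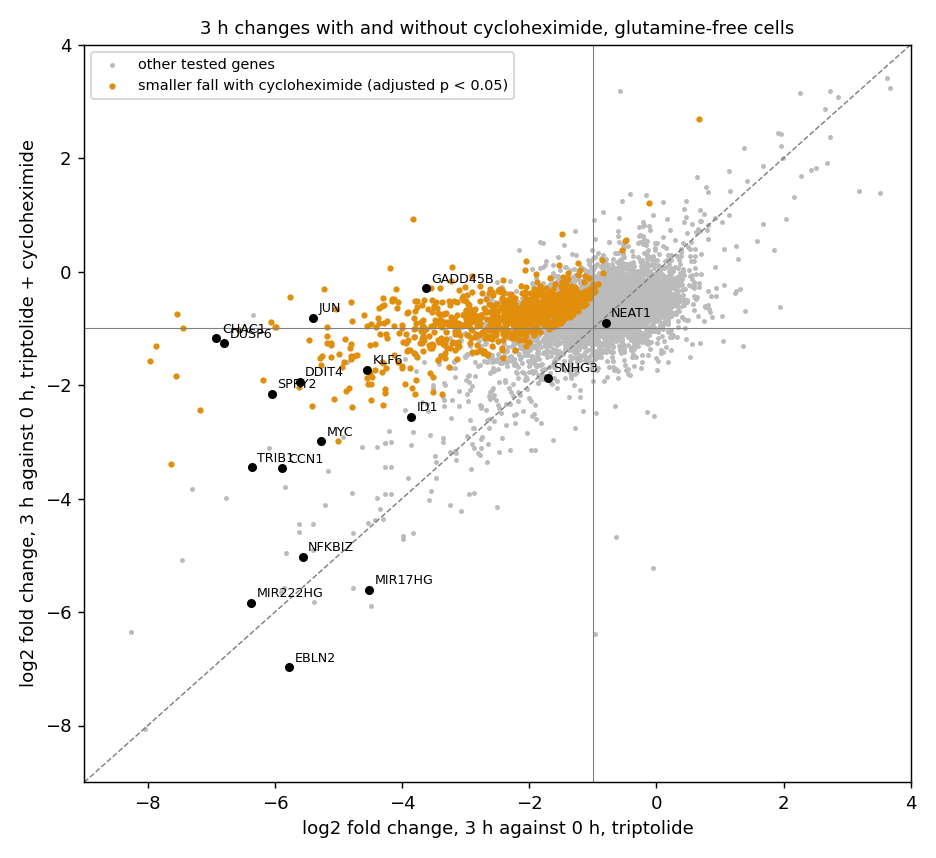
Change from 0 h to 3 h (log2, stable genes) in the mQ TCHX arm (vertical) against the mQ T arm (horizontal), 1 point per gene tested in both, with genes of a smaller fall in the TCHX arm in orange, named genes in black, equal changes on the dashed line and thin lines at a 2-fold fall. EBLN2, MIR222HG, MIR17HG and NFKBIZ lie far down in both arms, and DUSP6, CHAC1 and JUN lie far above the dashed line.

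Several of the strongest falls did not differ between the arms past the threshold. NFKBIZ changed by −5.02 with both drugs and by −5.57 with triptolide alone, a difference of 0.54 (SE 0.63, edgeR adjusted p = 0.755). MIR222HG changed by −5.84 and −6.37 (difference 0.55, SE 0.66, edgeR adjusted p = 0.764), and MIR17HG by −5.60 and −4.51 (difference −1.08, SE 0.55, edgeR adjusted p = 0.318). With 3 h counts this low, a difference of about the standard error was not detectable for NFKBIZ and MIR222HG. The difference of MIR17HG was larger than its standard error, towards a larger fall with cycloheximide, and did not pass either. The estimates were closer for SNHG3 (−0.16, SE 0.23, edgeR adjusted p = 0.806), for ETAA1 (0.40, SE 0.36, adjusted p = 0.658) and for the apoptosis gene BCL2L11 (0.03, SE 0.38, adjusted p = 0.989), none of which passed the threshold.

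Other mRNAs of the fast set fell less with cycloheximide. TRIB1 fell by 3.45 with both drugs and by 6.36 with triptolide alone (difference 2.92, SE 0.34, edgeR adjusted p = 8.31e-06), and NFKBIA by 2.38 and 4.80 (difference 2.41, SE 0.32, edgeR adjusted p = 4.03e-05). SGK1 showed a difference of 3.05 (SE 0.26, edgeR adjusted p = 2.29e-07). Those of MYC (2.30, SE 0.76, adjusted p = 0.075) and CCN1 (2.42, SE 0.84, adjusted p = 0.0989) were of similar size but did not pass. In the T arm at 0 h, CCN1 had 432, 58.8 and 428 and MYC 118, 34.3 and 99.2 normalised counts, with the same library low for both.

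The mRNAs with the smallest p for this difference were nearly lost with triptolide alone and fell in part with both drugs. CHAC1, a glutathione-degrading enzyme induced by ATF4, had 1571, 1842 and 2297 normalised counts at 0 h and 747, 717 and 1060 at 3 h in the TCHX arm, against 5.63, 23.5 and 21.1 at 3 h in the T arm (difference 5.75, SE 0.37, edgeR adjusted p = 4.86e-09). DUSP6, the ERK phosphatase, had 7682, 7407 and 8923 at 0 h and 2949, 2777 and 4274 at 3 h, against 49.7, 57.4 and 85.1 in the T arm (difference 5.53, SE 0.33, edgeR adjusted p = 3.40e-09). DDIT4, an inhibitor of mTORC1, had 3555, 4428 and 4816 at 0 h and 1074, 1219 and 1045 at 3 h, against 64.1 to 79.6 in the T arm (difference 3.67, SE 0.23, edgeR adjusted p = 4.86e-09). All 3 were still fast in the TCHX arm on the stable-gene scale (−1.18, −1.26 and −1.94), and DDIT4 alone of them was past 2-fold with TMM (−1.33, against −0.55 for CHAC1 and −0.64 for DUSP6).

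The stress factors JUN and GADD45B were not fast in the TCHX arm. JUN, the AP-1 subunit, had 219, 270 and 503 normalised counts at 0 h and 134, 129 and 295 at 3 h, so that the groups overlapped (log2 change −0.81, SE 0.27, edgeR adjusted p = 0.0104), against 5.22 to 8.44 at 3 h in the T arm (difference 4.58, SE 0.61, edgeR adjusted p = 3.84e-05). GADD45B, a stress sensor, had 126, 173 and 186 at 0 h and 116, 148 and 135 at 3 h (−0.29, SE 0.19, edgeR adjusted p = 0.167, and 0.33 with TMM). Its change in the T arm was −3.63, with a difference of 3.34 (SE 0.39, edgeR adjusted p = 7.09e-06). Its relative GADD45A changed by −0.38 (edgeR adjusted p = 0.0221), which was 0.24 with TMM, and by −2.40 in the T arm (difference 2.02, edgeR adjusted p = 0.00117). ATF4 changed by −0.75 and −1.42, a difference of 0.67 that did not pass (SE 0.30, edgeR adjusted p = 0.238).

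A larger fall with cycloheximide was called for few genes on the stable-gene scale. The named ones were RPA3, a subunit of replication protein A (difference −0.65, SE 0.19, edgeR adjusted p = 0.0391), and TMEM59 (−0.71, SE 0.22, adjusted p = 0.0471), while TMEM14A did not pass (−0.81, SE 0.27, adjusted p = 0.078) but did so with TMM (−0.89, adjusted p = 0.0414). The 3 h libraries of the arms overlapped for all 3 genes, and the 0 h libraries did not, being higher in the TCHX arm. RPA3 had 1226, 1436 and 1030 normalised counts at 0 h in the TCHX arm and 846, 789 and 916 in the T arm, and 641 to 830 at 3 h in either.

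The pathway lists were then examined in turn, each against the background of 10.7% fast genes and a median of −0.61. Over all tested genes 76.7% were lower, 1.65% were at least 2-fold lower with TMM and 28.5% were fast in the T arm. The fall was smaller with cycloheximide for 7.42% of genes. The immediate early and feedback groups held the most fast members. Of 19 AP-1 and immediate early factors, 18 were lower and 6 fast (4 with TMM), with a median of −0.84, whereas 18 were fast in the T arm (median −3.38) and 14 had a smaller fall with cycloheximide. JUNB, a partner of JUN in AP-1, had 567, 474 and 641 normalised counts at 0 h and 95.9, 87.4 and 202 at 3 h (−2.10), and IER5 changed by −1.48 and EGR3 by −1.26. Of 16 ERK feedback genes, 16 were lower and 7 fast (4 with TMM), with a median of −0.94 (T arm −2.89), and 9 had a smaller fall with cycloheximide. SPRY2, an inhibitor of receptor tyrosine kinase signalling, fell from 1176, 1348 and 1408 to 191, 276 and 411 (−2.15), and SPRY4 by 1.20.

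Of 13 ID and TGF-beta feedback genes, 12 were lower and 6 fast (3 with TMM), with a median of −0.95. SMAD7, the inhibitory SMAD, changed by −2.25 and the repressor TGIF1 by −1.78. BAMBI, a pseudoreceptor, changed by −0.95 against −4.56 in the T arm (difference 3.61, SE 0.33, edgeR adjusted p = 4.01e-07). Of 14 KLF and related zinc finger factors, 11 were lower and 5 fast (1 with TMM), with a median of −0.82. KLF6 had 659, 841 and 722 normalised counts at 0 h and 201, 256 and 217 at 3 h (−1.73), and ZBTB7A, KLF9 and KLF10 changed by −1.58, −1.11 and −1.06. For ZBTB7A the T arm gave −2.24, a difference that did not pass (0.66, edgeR adjusted p = 0.0667).

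Among 13 NF-kB pathway genes, 10 were lower and 4 fast (2 with TMM). Their median of −0.58 was that of the typical gene, although NFKBIZ and NFKBIA were among the strongest falls, and REL, a NF-kB subunit, changed by −1.53. Of 11 AU-rich element binders and deadenylase adaptors, 11 were lower and 5 fast (0 with TMM), with a median of −0.89. TOB2, an adaptor of the CCR4-NOT deadenylase, changed by −1.29 and ZFP36L2, which binds AU-rich elements, by −1.02, while CNOT7, the deadenylase itself, changed by −0.75. Of 13 BCL2 family genes, 12 were lower and 3 fast (0 with TMM). MCL1, the short-lived survival factor, had 3739, 4166 and 5043 normalised counts at 0 h and 1445, 1505 and 1791 at 3 h (−1.45), against −3.80 in the T arm. Of 18 p53 targets, 18 were lower and 5 fast (0 with TMM), with a median of −0.74, among them PLK2 (−1.28), while MDM2, the p53 ubiquitin ligase, changed by −0.96.

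Amino acid stress genes were close to the typical gene without translation. Of 23, 23 were lower and 2 fast (1 with TMM), with a median of −0.56, against 9 fast in the T arm, and 5 had a smaller fall with cycloheximide. DDIT3, the stress factor CHOP, had 2291, 3094 and 3337 normalised counts at 0 h and 1293, 1437 and 2005 at 3 h (−0.88), against 55.3, 79.6 and 527 at 3 h in the T arm (difference 2.82, SE 0.65, edgeR adjusted p = 0.00792). The 3 IRF2BP family genes gave a median of −0.95 with 0 fast, and all 3 were fast in the T arm. Of 10 MYC, MAX and MXD genes, MYC alone was fast, with MAX at −0.62 and MXI1 at −0.65. Of 16 cyclin L, CLK and SR factor genes, 3 were fast (0 with TMM), with a median of −0.71. TRA2B changed by −0.98 and CCNL1 by −0.89.

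Housekeeping groups moved with the scale, and on the stable-gene scale 76.7% of all tested genes were lower. Of 38 replication and repair genes 37 were lower and 0 fast (median −0.64), of 38 mitosis genes 38 and 0 (−0.63), of 36 nuclear-encoded respiratory chain genes 34 and 0 (−0.57), of 72 cytosolic ribosomal proteins 70 and 0 (−0.58), and of 15 nonsense-mediated decay factors 14 and 0 (−0.63). With TMM 0 members of the replication, mitosis, respiratory and ribosomal protein lists were lower, against 3.05% of all tested genes. Of 16 glycolysis genes 15 were lower and 1 fast (−0.57), and GAPDH changed by −0.58 on the stable-gene scale and by 0.03 with TMM. Of 10 tested melanoma lineage genes 8 were lower and 0 fast (−0.66). SOX10, the neural crest factor, changed by −0.63 with both drugs and −1.79 with triptolide alone (difference 1.16, SE 0.17, edgeR adjusted p = 0.000136). Of the other cell type markers 3 were tested, 1 lower (KRT18, −0.70) and 0 fast. None of the 13 mitochondrially encoded mRNAs was among the names analysed here. Among named members, BRCA2 changed by −0.94, the flap nuclease FEN1 by −0.82 and the kinetochore genes CENPE and NDC80 by −0.85 and −0.91.

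**Figure D4:**
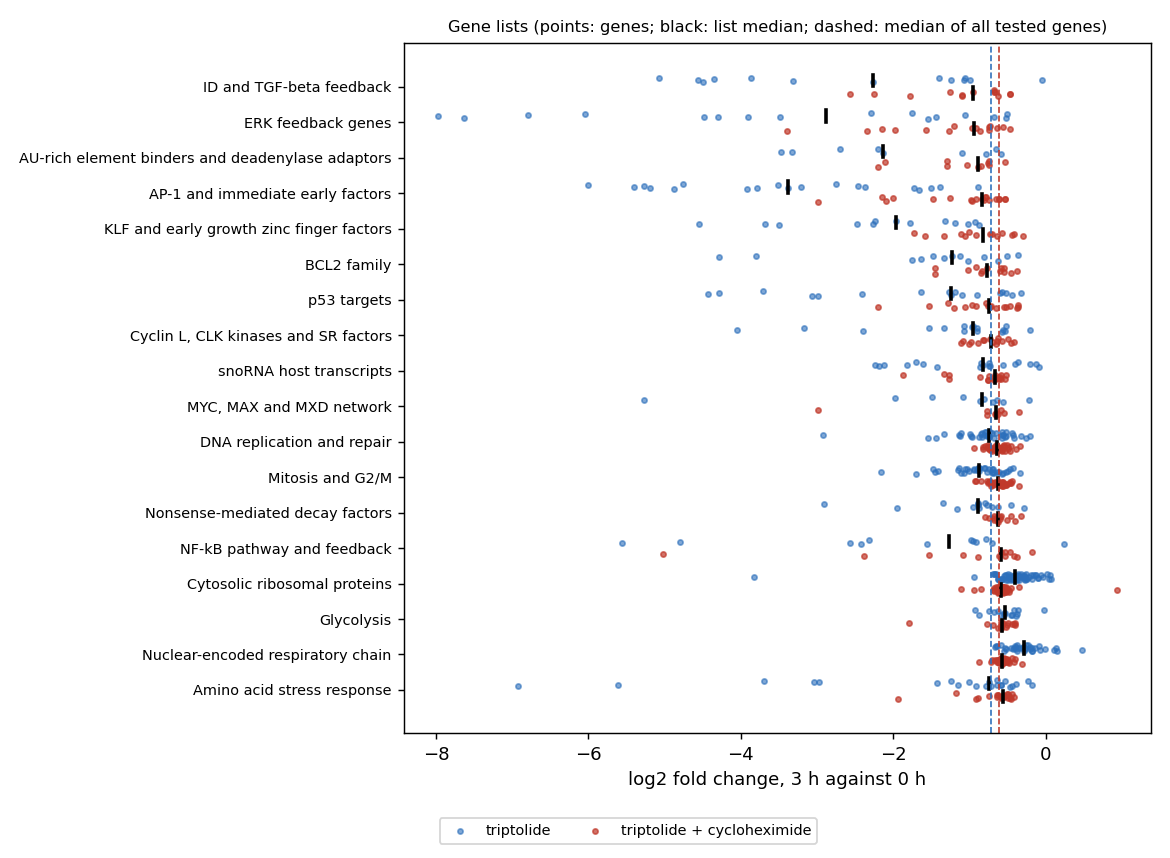
Change from 0 h to 3 h (log2, stable genes, horizontal) of each tested member of 18 pathway lists in the mQ TCHX arm (red) and the mQ T arm (blue), with list medians in black and the medians of all tested genes (−0.61 and −0.71) as dashed lines. With both drugs the medians of the immediate early, ERK feedback and ID lists are at −0.84, −0.94 and −0.95, and those of the ribosomal protein and respiratory lists at −0.58 and −0.57.

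The 1345 fast genes were looked up in the TCHX arms of the other conditions, which have 0 h libraries of their own. The siRNA libraries were scaled to 198 stable genes of their own. In pQ cells 1301 of 12611 genes (10.3%) were fast, in siGL2 cells 1087 of 12497 (8.7%) and in siCTU2 cells 619 of 12548 (4.93%). Of the 1345 genes, 660 were fast in pQ cells (49.1% of the mQ and 50.7% of the pQ calls), 592 in siGL2 cells (44% and 54.5%) and 403 in siCTU2 cells (30.0% and 65.1%). Their median change was −1.31 in mQ cells, by which they were chosen, and −1.11, −1.01 and −0.78 in pQ, siGL2 and siCTU2 cells. The medians of all tested genes were −0.61, −0.57, −0.48 and −0.32 in the same order. For the 208 genes fast with TMM in mQ cells, the TMM medians were −2.03 in mQ cells and −1.63, −1.67 and −1.56 in the others. With TMM the calls were 208, 109, 288 and 265, so the order of the conditions depended on the scale. The pQ count also depended on single replicates, at 3, 316 and 1407 without replicate 1, 2 or 3. In the 0 h library of pQ TCHX replicate 3, NFKBIZ had 119 normalised counts against 284 and 266 in the others, and LEP, described below, had 72.4 against 0 and 0. Without that library 1650 genes were fast in pQ cells. The 15 protein-coding genes with the largest falls among those with a mean of at least 100 normalised counts at 0 h were at least 2-fold lower in all of the mQ T (median −4.80) and pQ TCHX arms (−2.83), and 14 of 15 were so in siGL2 (−2.32) and siCTU2 cells (−1.93).

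Whether glutamine starvation altered decay without translation was tested as the difference of the 3 h changes between mQ and pQ TCHX cells. Of 13298 genes, 1 passed (0.00752%), the nuclear lncRNA NEAT1, and 332 had an unadjusted p under 0.05. NEAT1 had 5318, 4874 and 5411 normalised counts at 0 h and 2691, 2816 and 2833 at 3 h in mQ cells, against 4105, 3020 and 4022 and then 4365, 5086 and 6426 in pQ cells. The log2 changes were −0.90 (SE 0.11, edgeR adjusted p = 2.67e-06) and 0.51, with a difference of −1.41 (SE 0.21, edgeR adjusted p = 0.0357). With TMM the difference was −1.38 (edgeR adjusted p = 0.371), and 0 genes passed. By the naming rule, SNORD63 (difference −1.98, edgeR adjusted p = 0.473) and COL27A1, a collagen (−0.98), fell more in mQ cells by the estimates, and APLP1 (1.51), ZNF48 (1.17) and TRNA (6.37) fell less, but none of the 5 passed. TRNA, a tRNA entry, rested on single libraries and changed by −0.77 in mQ TCHX cells.

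The fast genes were also read at 5 h. The median log2 ratio of 5 h over 3 h for the 1345 genes was −0.21, −0.27 and −0.41 in the 3 pairs, and −0.01, −0.15 and −0.31 for all genes. Between 844 and 868 of the 1345 were below their 3 h value. Because the genes were chosen with the 3 h libraries, these values are given without a test.

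A small set of transcripts rose while transcription was blocked. Of the 101 higher genes, 75 had a mean of less than 10 normalised counts at 0 h. LEP (leptin; chromosome 7, 128241278 to 128257629, plus strand) had 0 counts in all 3 libraries at 0 h and 153, 133 and 216 normalised counts at 3 h, at least 47.4-fold higher, computed against a floor of 3 counts per library. LMOD3, a muscle actin regulator, went from 0 in every library to 103, 145 and 175 (at least 39.9-fold higher), and PBOV1 from 0 to 88.9, 115 and 122 (at least 30.8-fold higher). DCAF4L2 had 0, 7.4 and 11.6 at 0 h and 211, 198 and 240 at 3 h (log2 change 4.98, SE 0.35, edgeR adjusted p = 5.74e-10). These 4 rose in the T arm as well, LEP to 229, 223 and 156 (edgeR adjusted p between 1.48e-07 and 2.05e-06).

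LOC105374748 rose far more with cycloheximide than without. It had 98.1, 144 and 146 normalised counts at 0 h and 633, 856 and 1050 at 3 h (log2 change 2.69, SE 0.18, edgeR adjusted p = 3.16e-10). In the T arm it had 73.8, 173 and 121 at 0 h and 136, 209 and 246 at 3 h, where the groups overlapped (0.67, edgeR adjusted p = 0.0539). The difference between the arms was 2.03 (SE 0.37, edgeR adjusted p = 0.00106).

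**Figure D5:**
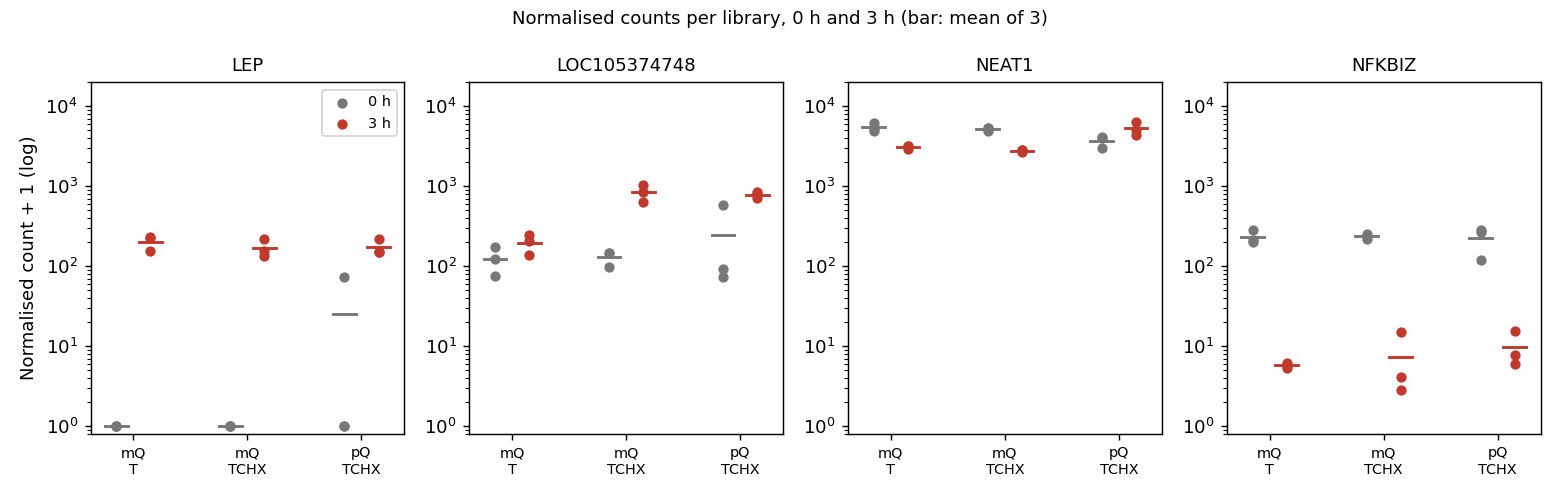
Normalised counts plus 1 (log axis) of LEP, LOC105374748, NEAT1 and NFKBIZ at 0 h (grey) and 3 h (red) in the mQ T, mQ TCHX and pQ TCHX groups, 1 point per library with a bar at the mean of 3. LEP starts at 0 counts in both mQ groups, LOC105374748 at 3 h lies at 633 to 1050 in mQ TCHX and 136 to 246 in mQ T cells, and 1 library of pQ TCHX at 0 h stands apart for LEP, LOC105374748 and NFKBIZ.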

How the data were processed

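QuantSeq libraries of cytoplasmic RNA, which read the 3′ ends of polyadenylated transcripts, were deposited by the authors as raw counts of reads per gene. Per the submitters' processing notes the authors used fastp 0.20.1, HISAT2 2.2.1, HTSeq 0.13.5 and GRCh38.p13. The strand setting and any use of molecular identifiers are not given in the sources used here, so counts may include PCR copies and counting error is a lower limit of the error. ERCC standards had been added, but the table used here had no spike-in names. All 72 columns were matched to a title.

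Counts were fitted with edgeR 4.0.16 (filterByExpr, quasi-likelihood F-test, Benjamini-Hochberg adjustment, R 4.3.3) on the 6 mQ TCHX libraries at 0 and 3 h without a replicate term, and the differences between arms and between media on 12 libraries each. Size factors came from genes with a CPM above 0.2 at 0 h in both arms of every replicate of mQ and pQ cells. In each, the CPM at 3 h or at 5 h also had to be at least 1.1 times that at 0 h. The 0 h CPM had to exceed 0.1 times that later CPM. There were 82 such genes, of which 81 had counts in every library. The alternative set that met this at both times held 3 genes. Changes are therefore relative to genes selected for rising CPM. The scripts were tested on simulated data. Same-numbered libraries at 0 h and 3 h deviated together (r = 0.129, 0.166 and 0.276), so a fit with the replicate number as a block was an alternative. Replicates differed by more than sampling noise (chi-square per gene 5.00 to 15.3).

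Named genes were the 15 largest falls and 5 largest rises that moved the same way in all 3 pairs with a mean of at least 100 normalised counts in the higher group, for each difference, the 3 of smallest p on either side (0 h mean of at least 100), up to 4 members per list with the smallest p, and JUN, GADD45A, GADD45B, ATF4, CHAC1 and GAS5. CCN1, TRIB1, MYLIP, YOD1, SGK1, HOXD4, ETAA1, SPATA2, the host genes of intronic transcripts and the genes of the closing observations were chosen after their values were seen. The comparison, the lists and the named families were chosen with earlier results of these data known. Gene positions and 3′ UTRs are from GENCODE v44 (GRCh38). Alternatives were other stable genes, TMM, ribosomal protein and library-total scaling, DESeq2 1.42.0, no count filter, leaving out libraries, all 18 mQ libraries, a test against a 1.5-fold change and other fold limits.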

Additional observations from a re-analysis of the deposited data

Results flagged for a closer look

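NEAT1 was flagged because its 3 h change differed between media in a test of the difference itself. The difference of mQ minus pQ in the TCHX arm was −1.41 on the log2 scale (SE 0.21, edgeR adjusted p = 0.0357), from a change of −0.90 in mQ cells and of 0.51 in pQ cells. In mQ T cells NEAT1 changed by −0.80, in siGL2 TCHX cells by 0.47 and in siCTU2 TCHX cells by 0.13. Without the 0 h library of pQ TCHX replicate 3 NEAT1 remained the 1 gene called, and its pQ change was 0.57. In contrast, 0 genes were called with TMM (NEAT1 difference −1.38, edgeR adjusted p = 0.371), with both other sets of stable genes, with ribosomal protein scaling, with library totals, and without replicate 1 or 2.

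LOC105374748 was flagged for its level in the 5 h libraries, which the comparison of 3 h with 0 h does not use. Its normalised counts there were 3996, 3164 and 4972 (mean 4044 ± 905, SD, n = 3), against 98.1 to 146 at 0 h, and every 5 h library lay above every 3 h library. The 5 h libraries were not tested.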

How the results depend on the processing

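The count of lower genes (9671) was 385 with TMM, 365 with ribosomal protein scaling, 419 with library totals, 2946 with the stable genes of the siRNA experiment, 4854 in a fit of all 18 mQ libraries and 953 tested against a 1.5-fold change. That of higher genes (101) was 221 without a count filter. Fast genes (1345) were 208 with TMM, 208 with ribosomal protein scaling, 220 with library totals, 505 with the siRNA stable genes, 3099 with genes stable at both times, 845 with all 18 libraries, 785 tested against 1.5-fold, 415 at 3-fold or more and 390 at 2-fold or more relative to the median gene. The difference between arms (978 genes) was 2566 with genes stable at both times, 2047 with ribosomal protein scaling and 391 to 811 when 1 replicate was left out. That between media (1 gene) was 0 with TMM, both other stable sets, ribosomal protein scaling and library totals, 4 with DESeq2, 133 without a filter and 0 to 1 when 1 replicate was left out. Fast genes with TMM were 1063 of 3473 in mQ T, 109 of 1301 in pQ, 288 of 1087 in siGL2 and 265 of 619 in siCTU2 cells, and leaving out a replicate gave 3 to 1407 in pQ cells (1650 without 0 h replicate 3 alone, chosen after seeing the data). Leaving out a library of the mQ TCHX comparison gave 8634 to 9516 lower and 1172 to 1557 fast genes. A scale moves all genes together, which accounts for the counts that moved with it, and the cause of the others was not tested. With the replicate number as a block for the pairing, 10016 genes were lower, 112 higher and 1350 fast, the arms differed for 1280 and the media for 1, and no count moved by over 1.5 times.

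Of 1470 alternative values of 92 named genes, 1294 kept direction and side of the threshold, 150 were no longer past it, 1 passed newly and 25 reversed. With TMM, ribosomal protein scaling and library totals in turn, changes turned to 0.13, 0.12 and 0.12 for TMEM14A, 0.35, 0.34 and 0.34 for APLP1, 0.029, 0.019 and 0.018 for ZNF48, 0.13, 0.11 and 0.12 for COL27A1, 0.24, 0.23 and 0.23 for GADD45A, 0.33, 0.31 and 0.32 for GADD45B and 0.033, 0.014 and 0.021 for GAPDH. With the siRNA stable genes APLP1 was at 0.063 and GADD45B at 0.043. Leaving out single libraries gave −1.18 to 0.47 for TRNA (without 0 h replicate 3) and −0.26 (without 3 h replicate 2) to 2.98 for EIF3CL.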

Other observations

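Beside the 5 named rises, 7 genes were higher at 3 h in mQ TCHX cells with a mean of at least 100 normalised counts, and they were chosen after their values were seen. EIF3CL, a near-identical copy of EIF3C, rested on 1 library (81.0, 1253 and 61.3 at 3 h). The other 6 moved in each pair of libraries. PKD1, the polycystin gene, had 273, 201 and 284 normalised counts at 0 h and 322, 295 and 489 at 3 h (log2 change 0.56, SE 0.18, edgeR adjusted p = 0.00933), and KLHL17, a BTB-kelch protein gene, had 166, 161 and 142 and then 206, 274 and 206 (0.55, SE 0.17, edgeR adjusted p = 0.00744). CYB5D2 changed by 0.37, PLXNB3, a semaphorin receptor, by 0.37, SNORD104 by 0.81 and the transcribed pseudogene SLC6A10P by 1.21.

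In the mQ T arm the same 6 had estimates between −0.53 and −0.12. The difference between the arms passed for PKD1 (1.03, SE 0.30, edgeR adjusted p = 0.0359), KLHL17 (1.04, SE 0.28, edgeR adjusted p = 0.0252), CYB5D2 (0.91, SE 0.20, edgeR adjusted p = 0.00471) and SLC6A10P (1.33, SE 0.38, edgeR adjusted p = 0.0346), and not for PLXNB3 (0.76, adjusted p = 0.127) or SNORD104 (1.03, adjusted p = 0.153). With TMM it no longer passed for PKD1 (edgeR adjusted p = 0.102) or SLC6A10P (edgeR adjusted p = 0.070). With genes stable at both times as the scale, PKD1, KLHL17, CYB5D2 and PLXNB3 were no longer past the threshold (0.32, 0.30, 0.13 and 0.12). Without 3 h replicate 3, PKD1 changed by 0.30 (edgeR adjusted p = 0.132).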
